A study of Mus musculus with 13 samples.

Results

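The miR-181 family was followed in mouse neuroblastoma through its 4 mature guide strands, mmu-miR-181a-5p, mmu-miR-181b-5p, mmu-miR-181c-5p and mmu-miR-181d-5p (mmu marks mouse and is left out below), which are 4 of the 1079 mouse miRNAs on the array. The members are the guide strands that carry the family name. The 13 samples were primary abdominal neuroblastomas of TH-MYCN mice, in which the tyrosine hydroxylase promoter drives MYCN in cells of the sympathetic lineage and tumours form spontaneously. One group held 7 caspase-8-deficient tumours from mice with bone marrow metastasis, and the other held 6 tumours with wild-type caspase-8 from mice without it. Genotype and metastasis changed together, so each difference below belongs to both and they cannot be told apart. The sources used here do not give the strain, the age or the way caspase-8 was made deficient. Total RNA of each tumour was hybridised to 1 Agilent array of 1 colour, and the labels call the tumours biological replicates. An array detected 338 to 469 of the mouse miRNAs, and its scaling value ranged from 851 to 1929 over the 13 arrays.

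miRNAs pair with messenger RNAs mainly through their seed, bases 2 to 8 from the 5′ end, and so lower the output of many transcripts at once. The miR-181 family is best known from lymphocyte development, where miR-181a is abundant in thymocytes and tunes how strongly the T cell receptor signals, and it is also made in the brain and in neurons. A solid tumour holds neuroblasts, vessels, blood and leukocytes, so the level in bulk RNA is a mixture over these cells, and fewer cells of a type and less miRNA per cell cannot be told apart.

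The mature sequences are shown because the pairing of the members by sequence crosses their pairing by locus. All 4 members matched the RefSeq table (GRCm38.p6), and capitals mark the seed.
mmu-miR-181a-5p: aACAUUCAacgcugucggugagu
mmu-miR-181b-5p: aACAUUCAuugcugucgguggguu
mmu-miR-181c-5p: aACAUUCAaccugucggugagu
mmu-miR-181d-5p: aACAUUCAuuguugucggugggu
The 4 seeds were identical, and among the 1679 mature miRNAs of that table only these 4 carried the seed. The members differed outside it. miR-181c-5p was 1 edit from miR-181a-5p, a single missing base, and miR-181d-5p was 2 edits from miR-181b-5p, the substitution C12U and a missing base at the 3′ end. Positions are counted from 1 at the 5′ end of the first miRNA named. Against miR-181a-5p, miR-181b-5p carried A9U, C10U and A21G beside 1 added base, a total of 4 edits. The same number separated miR-181a-5p from miR-181d-5p, and 5 edits separated miR-181c-5p from both miR-181b-5p and miR-181d-5p. The closest sequences thus lay at different loci.

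The locus of each member follows from the same table. miR-181a-5p and miR-181b-5p are each made from 2 hairpins with identical mature sequences. On the plus strand of chromosome 1 they lie at chr1:137966468-137966490 (Mir181a-1) and chr1:137966650-137966673 (Mir181b-1), outside any annotated gene, with the long noncoding RNA Gm34353 and then Ptprc, the gene of the leukocyte protein CD45, as the next genes. On the plus strand of chromosome 2 they lie at chr2:38852741-38852763 (Mir181a-2) and chr2:38853845-38853868 (Mir181b-2), inside Nr6a1 and the long noncoding RNA Nr6a1os. miR-181c-5p and miR-181d-5p have 1 hairpin each, on the minus strand of chromosome 8 at chr8:84178924-84178945 and chr8:84178759-84178781. These lie between Nanos3 and the miRNA genes Mir23a, Mir27a and Mir24-2, a cluster named Mirc11. A probe for a mature guide strand cannot tell the chromosome 1 hairpins from those on chromosome 2.

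All 4 members were detected on all 13 arrays, with 2 probes per member and 20 spots per probe. Levels are given as log2 of the scaled intensity, where the floor, the lowest level set in the analysis, was 4.1. The lowest member level, 6.09 for miR-181a-5p in wild-type replicate 2, was 1.99 above the floor. Repeat spots limited single values little: the median error of a probe mean over the tumours was 1.12% to 3.66%, with the highest for the dimmer probe of miR-181a-5p. The spots of that probe varied by up to 53.5% (CV) on a single array, and its lowest intensity, 7.14, was under the floor of 17.2. By itself it was at the floor in deficient replicates 2 and 5 and wild-type replicate 2. Both probes of a member followed each other across the 13 tumours, with a Pearson r of 0.98 for miR-181a-5p, 0.96 for miR-181b-5p, 0.97 for miR-181c-5p and 0.92 for miR-181d-5p, as a description of the probes. Probes differ in brightness, so the level of 1 member is not set against that of another.

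mmu-miR-181a-5p ranged most among the members. Its level was 6.23 at the lowest, 6.95 at the median and 7.39 at the highest in the 7 deficient tumours. In the 6 wild-type tumours it was 6.09 at the lowest, 6.575 at the median and 7.61 at the highest. The groups overlapped over nearly their whole range, and the 2 highest of all 13 tumours were wild-type replicates 3 and 5, at 7.61 and 7.55. The mean was 6.82 ± 0.44 (SD, n = 7) in deficient and 6.81 ± 0.62 (SD, n = 6) in wild-type tumours. The difference, deficient minus wild type, was 0.0064 (SE 0.29, 95% interval −0.61 to 0.62, limma adjusted p = 0.995), and its sign turned in 8 of 13 cases when 1 tumour was left out.

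mmu-miR-181b-5p, made from the same pair of loci, varied less. Deficient tumours had 7.13 at the lowest, 7.29 at the median and 7.55 at the highest. Wild-type tumours had 6.84 at the lowest, 7.315 at the median and 8.14 at the highest. All 7 deficient tumours lay inside the wild-type range, whose upper end was wild-type replicate 5 and whose lower end was wild-type replicate 6. The means were 7.32 ± 0.15 (SD, n = 7) in deficient and 7.37 ± 0.45 (SD, n = 6) in wild-type tumours, a difference of −0.045 (SE 0.20, 95% interval −0.47 to 0.38, limma adjusted p = 0.97). Leaving out wild-type replicate 5 turned the sign, to 0.111.

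mmu-miR-181c-5p was at 7.00 at the lowest, 7.57 at the median and 7.64 at the highest in deficient tumours. In wild-type tumours it was at 7.09 at the lowest, 7.405 at the median and 8.48 at the highest. The highest value belonged to wild-type replicate 3, and the other 5 wild-type tumours lay within the range of the deficient ones. The means were 7.45 ± 0.25 (SD, n = 7) in deficient and 7.54 ± 0.49 (SD, n = 6) in wild-type tumours. The difference was −0.088 (SE 0.22, 95% interval −0.56 to 0.39, limma adjusted p = 0.915). Leaving out wild-type replicate 3 turned it to 0.1 (limma adjusted p = 0.926), so that 1 tumour set the sign.

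mmu-miR-181d-5p, from the neighbouring hairpin, had the lowest SD of the 4 members over the 13 tumours. Deficient tumours had 8.51 at the lowest, 8.62 at the median and 8.94 at the highest. Wild-type tumours had 8.15 at the lowest, 8.61 at the median and 9.06 at the highest. The deficient tumours again lay inside the wild-type range, bounded above by wild-type replicate 3 and below by wild-type replicate 4. The means were 8.69 ± 0.16 (SD, n = 7) in deficient and 8.60 ± 0.34 (SD, n = 6) in wild-type tumours, a difference of 0.089 (SE 0.18, 95% interval −0.29 to 0.47, limma adjusted p = 0.891). Leaving out wild-type replicate 4 brought it to −0.000479.

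**Figure D1:**
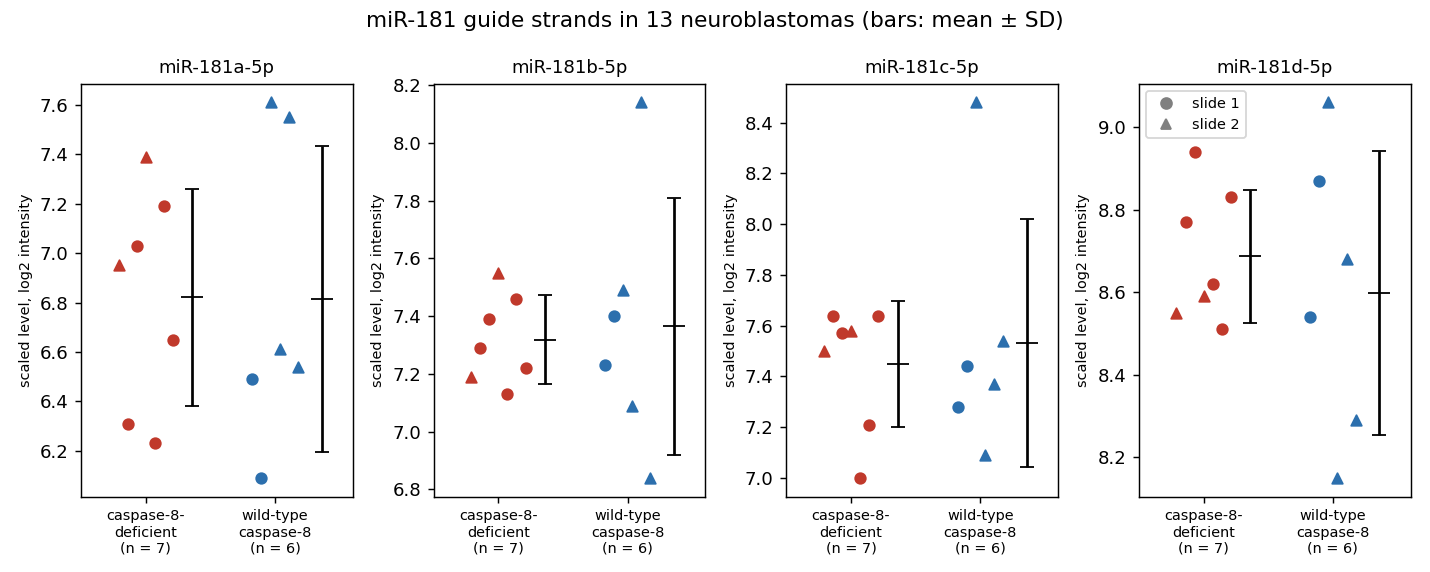
Scaled level (log2 intensity) of each guide strand in 7 caspase-8-deficient and 6 wild-type tumours; points are tumours, their shape gives the array slide, and bars give mean ± SD. The groups overlap for every member, and wild-type replicate 3 stands at 8.48 for miR-181c-5p.

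Of the 4 members, 0 passed an adjusted p of 0.05, against a background of 0% of the 419 miRNAs tested in the same limma fit. At an unadjusted p under 0.05 there were 0 members, against 3.82% of all tested, and 0 members had groups that did not overlap, against 0.239%. The mean was higher in deficient tumours for 2 members and lower for 2, and the median difference was −0.019. Over all 419 miRNAs, 54.2% had a higher mean in deficient tumours and the median difference was 0.0413. A p that misses the threshold does not show equal levels, and the intervals allow differences of up to 0.62 in size for miR-181a-5p and 0.47 for miR-181b-5p and miR-181d-5p.

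The probes of each member gave like differences. For miR-181a-5p the deficient minus wild-type difference was −0.076 (SE 0.31) at the dimmer probe and 0.020 (SE 0.27) at the brighter one. For miR-181b-5p the probes gave −0.071 (SE 0.17) and −0.028 (SE 0.19), and for miR-181c-5p −0.075 (SE 0.19) and −0.11 (SE 0.24). Those of miR-181d-5p gave 0.059 (SE 0.15) and 0.10 (SE 0.15). Only the probes of miR-181a-5p differed in sign, and each of these differences was smaller than its SE.

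Each member had a lower SD than the median of all tested miRNAs, miR-181a-5p by little. Over the 13 tumours the SD was 0.51 for miR-181a-5p, 0.31 for miR-181b-5p, 0.36 for miR-181c-5p and 0.25 for miR-181d-5p. The median SD of all 419 tested miRNAs was 0.533, and miR-181d-5p stood at percentile 6.44 of them. The gaps in spread between members depended on the background step. With the normexp alternative for background, the SE of the group difference was 0.128, 0.134, 0.129 and 0.123 for miR-181a-5p to miR-181d-5p. As reported, it was 0.288, 0.199, 0.221 and 0.177. In all 4 members the SD was lower in deficient than in wild-type tumours, with ratios of deficient over wild type of 0.712, 0.343, 0.504 and 0.469 for miR-181a-5p to miR-181d-5p. Over all tested miRNAs 63.7% had a lower SD in deficient tumours and the median ratio was 0.826, and the ratios of the members were not tested. Single tumours carried some of the wild-type spread: the SD of miR-181b-5p there was 0.258 without wild-type replicate 5, against 0.446 with it. For miR-181c-5p it was 0.172 without wild-type replicate 3, against 0.486 with it and 0.245 in deficient tumours.

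The arrays lay on 2 slides. Slide 1 held 5 deficient and 2 wild-type tumours, and slide 2 held 2 deficient and 4 wild-type tumours. miR-181a-5p averaged 7.11 ± 0.47 on slide 2 (SD, n = 6) and 6.57 ± 0.41 on slide 1 (SD, n = 7). Adjusted for group, the slides differed by 0.634 (SE 0.27, limma adjusted p = 0.758), and for the other members by 0.0711, 0.191 and −0.161. With slide as a block the group difference of miR-181a-5p was 0.248 (limma adjusted p = 0.844), and it was 0.39 within slide 1 and 0.0952 within slide 2. For miR-181b-5p the values within slides 1 and 2 were −0.0154 and −0.0196, for miR-181c-5p 0.0511 and −0.0858, and for miR-181d-5p 0.0295 and 0.0255. Each rests on 2 tumours in 1 of the groups.

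Whether the chromosome 8 members moved apart from the other members was asked by a contrast on each array, the mean log2 level of miR-181c-5p and miR-181d-5p minus that of miR-181a-5p and miR-181b-5p. The scaling of an array cancels in it, and its absolute size depends on probe brightness and has no meaning of its own. The contrast was 0.53 at the lowest, 1.04 at the median and 1.40 at the highest in deficient tumours. It was 0.18 at the lowest, 1.13 at the median and 1.41 at the highest in wild-type tumours. The lowest value belonged to wild-type replicate 5, the tumour with the highest miR-181b-5p. The means were 0.996 ± 0.327 (SD, n = 7) in deficient and 0.977 ± 0.447 (SD, n = 6) in wild-type tumours. They differed by 0.0196, with a 95% interval of −0.453 to 0.492 (two-sided exact permutation p = 0.941, adjusted p = 0.941 over 2 contrasts). With slide as a block the difference was −0.109 (exact permutation p = 0.635), and within slides 1 and 2 it was −0.147 and −0.0679.

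The contrast by sequence set the mean of miR-181a-5p and miR-181c-5p against that of miR-181b-5p and miR-181d-5p. It was −1.26 at the lowest, −0.87 at the median and −0.59 at the highest in deficient tumours. In wild-type tumours it was −1.37 at the lowest, −0.86 at the median and −0.23 at the highest. Its highest value belonged to wild-type replicate 3. The means were −0.87 ± 0.234 (SD, n = 7) in deficient and −0.807 ± 0.397 (SD, n = 6) in wild-type tumours, a difference of −0.0629 with a 95% interval of −0.453 to 0.327 (exact permutation p = 0.732, adjusted p = 0.941). A slide block gave 0.111, slide 1 alone 0.214 and slide 2 alone 0.00178. Neither pairing separated the groups.

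**Figure D2:**
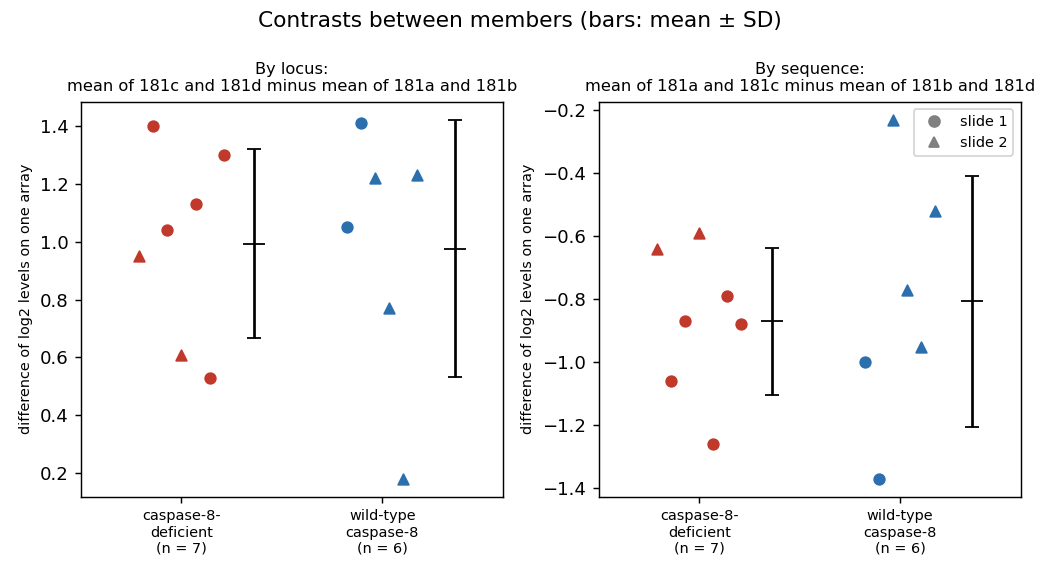
Contrasts between members on each array (difference of log2 levels, 1 point per tumour, bars mean ± SD, n = 7 deficient and n = 6 wild-type tumours, shapes for slides). The groups overlap and the wild-type range is the wider in both contrasts, with wild-type replicate 5 lowest by locus at 0.18 and wild-type replicate 3 highest by sequence at −0.23.

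Across all 13 tumours the same-locus pairs had the 2 highest correlations of the 6 pairs, but the order of the pairs was not tested and did not hold in every subset of the tumours. The Pearson r was 0.64 for miR-181a-5p with miR-181b-5p (Spearman rho 0.60) and 0.64 for miR-181c-5p with miR-181d-5p (Spearman rho 0.60). Among the 418 other tested miRNAs miR-181b-5p ranked 15 for likeness to miR-181a-5p, and miR-181d-5p ranked 25 for likeness to miR-181c-5p. Adjusted over the 6 pairs, both had a permutation p of 0.0501 by Pearson and 0.0973 by Spearman, on the far side of the threshold. The pairs closest in sequence had an r of 0.46 for miR-181a-5p with miR-181c-5p (rho 0.34, adjusted permutation p = 0.211) and 0.42 for miR-181b-5p with miR-181d-5p (rho 0.49, adjusted permutation p = 0.236). The pairs sharing neither had an r of 0.20 for miR-181a-5p with miR-181d-5p (rho 0.14) and 0.15 for miR-181b-5p with miR-181c-5p (rho 0.28), both with an adjusted permutation p = 0.558. Cross-binding of these near-identical miRNAs to each other's probes was not tested.

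The correlations changed with the tumours used. Each pair was read again without the 2 tumours farthest from the median of its first miRNA, so the tumours left out differed between pairs. Without wild-type replicates 3 and 5, r was 0.46 for miR-181a-5p with miR-181b-5p (permutation p = 0.16, adjusted p = 0.239). On the same tumours miR-181a-5p had 0.21 with miR-181c-5p and −0.10 with miR-181d-5p. Without wild-type replicate 3 and deficient replicate 5, r was 0.61 for miR-181c-5p with miR-181d-5p (permutation p = 0.0478, adjusted p = 0.214). Without wild-type replicates 5 and 6, miR-181b-5p had an r of 0.54 with miR-181c-5p and 0.51 with miR-181d-5p. Values from different tumours do not rank the pairs. Leaving out wild-type replicate 2 or 6 brought both same-locus pairs past the threshold, with adjusted permutation p between 0.0104 and 0.0438.

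Within slides 1 and 2, miR-181a-5p with miR-181b-5p had an r of 0.52 and 0.85, and miR-181c-5p with miR-181d-5p had 0.74 and 0.86. Within deficient and wild-type tumours the first pair had 0.79 and 0.64 and the second 0.53 and 0.73. In these 4 subsets the adjusted permutation p of both pairs was 0.0724 or more. The highest r within slide 2 was that of miR-181a-5p with miR-181d-5p, from different loci, at 0.89 (adjusted permutation p = 0.0272), while the same pair had −0.14 within slide 1, −0.26 within deficient and 0.40 within wild-type tumours. The other 3 pairs ranged from −0.10, for miR-181b-5p with miR-181d-5p within deficient tumours, to 0.58, for miR-181a-5p with miR-181c-5p within wild-type tumours.

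**Figure D3:**
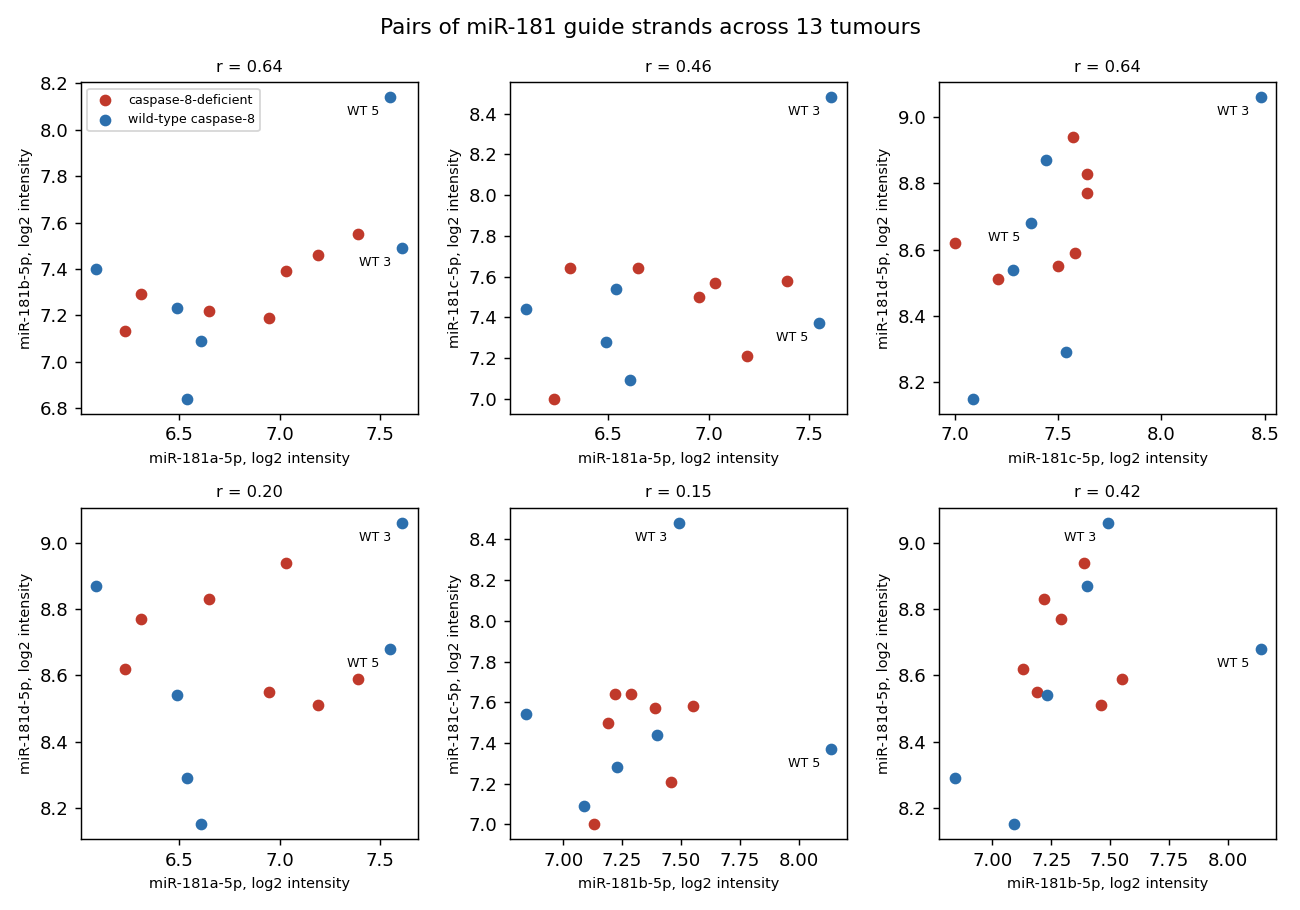
Each panel sets the log2 level of 1 guide strand against that of another, with 1 point per tumour (red, 7 deficient; blue, 6 wild type) and wild-type replicates 3 and 5 marked WT 3 and WT 5. At the top left is miR-181a-5p with miR-181b-5p, from shared loci on chromosomes 1 and 2. At the top right is miR-181c-5p with miR-181d-5p, from chromosome 8. Both have r = 0.64.

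Tumour by tumour, 1 deficient tumour and 1 wild-type tumour had all 4 members above their means over the 13 tumours. These were deficient replicate 3, with deviations of 0.21, 0.05, 0.08 and 0.29 for miR-181a-5p to miR-181d-5p, and wild-type replicate 3, with 0.79, 0.15, 0.99 and 0.42. All 4 members were below their means in 1 deficient tumour, replicate 5, and in 2 wild-type tumours, replicates 1 and 4. Wild-type replicate 3 ranked 1 for 3 members and 3 for miR-181b-5p. Wild-type replicate 5 ranked 1 for miR-181b-5p and 2 for miR-181a-5p, and lay near the mean for the chromosome 8 members, with deviations of −0.11 and 0.03.

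Markers of the cells in the tumours were set beside these values. Scaled intensities of a list were summed before log2, so its brighter miRNAs weigh most. On the leukocyte list miR-342-3p averaged 10.66 over the 13 tumours and miR-155-5p 5.63. All 6 neuroblast and neuroendocrine miRNAs listed (miR-124-3p, miR-9-5p, miR-7a-5p, miR-375-3p, miR-128-3p and miR-218-5p) were detected on all 13 arrays. Their summed level was 12.69 to 13.42 in deficient and 12.78 to 13.85 in wild-type tumours, and its highest value belonged to wild-type replicate 3. Of 7 leukocyte miRNAs 4 were detected on every array and the other 3 on some, and the summed level was 11.12 to 12.51 in deficient and 11.26 to 13.05 in wild-type tumours. Its highest value belonged to wild-type replicate 5. The summed level of the vessel list, with 4 of 4 miRNAs on the array, was 10.40 to 12.26 in deficient and 10.75 to 11.63 in wild-type tumours, and for the erythroid list, with 2 of 3, it was 14.28 to 16.35 in deficient and 12.28 to 16.08 in wild-type tumours, where the lowest value was that of wild-type replicate 3. For skeletal muscle, with 4 of 4 miRNAs on the array, the summed level was 6.50 to 13.13 in deficient and 7.35 to 11.81 in wild-type tumours. For liver and kidney, where 0 of 3 miRNAs were detected on all arrays, it was 5.87 to 6.67 in deficient and 5.79 to 6.80 in wild-type tumours.

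Over 24 relations between the members and these 6 summed levels, the smallest adjusted permutation p was 0.576 by Pearson and 0.462 by Spearman. The r of largest size was −0.55, for miR-181b-5p with the erythroid sum (rho −0.60). It was −0.66 without the 2 farthest tumours, −0.12 within slide 1 and −0.61 within slide 2. Next came −0.52 for miR-181b-5p with the liver and kidney sum (rho −0.34) and −0.50 for miR-181d-5p with the erythroid sum (rho −0.29). With the leukocyte sum, r was 0.41 for miR-181a-5p (rho 0.25), 0.44 for miR-181b-5p (rho −0.14), −0.33 for miR-181c-5p (rho −0.59) and −0.26 for miR-181d-5p (rho −0.39). Without its 2 farthest tumours these were 0.11, −0.16, −0.48 and −0.41. The values for the chromosome 1 and 2 members thus changed with the tumours used, and without wild-type replicate 5 alone they were 0.17 and −0.21. Within slides 1 and 2 they were 0.65 and 0.12 for miR-181a-5p and 0.16 and 0.49 for miR-181b-5p. With the neuroblast and neuroendocrine sum, r was 0.42 for miR-181c-5p (rho 0.10) and 0.34 for miR-181d-5p (rho 0.22). These were −0.38 and −0.54 within slide 1 and 0.95 and 0.82 within slide 2, so the relation did not hold within both slides. Without the 2 tumours farthest from the median of this sum, r was 0.50 for miR-181c-5p and 0.52 for miR-181d-5p. Without wild-type replicate 3 alone it was −0.01 for miR-181c-5p. The part of these cell types in the levels of the members was not tested.

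**Figure D4:**
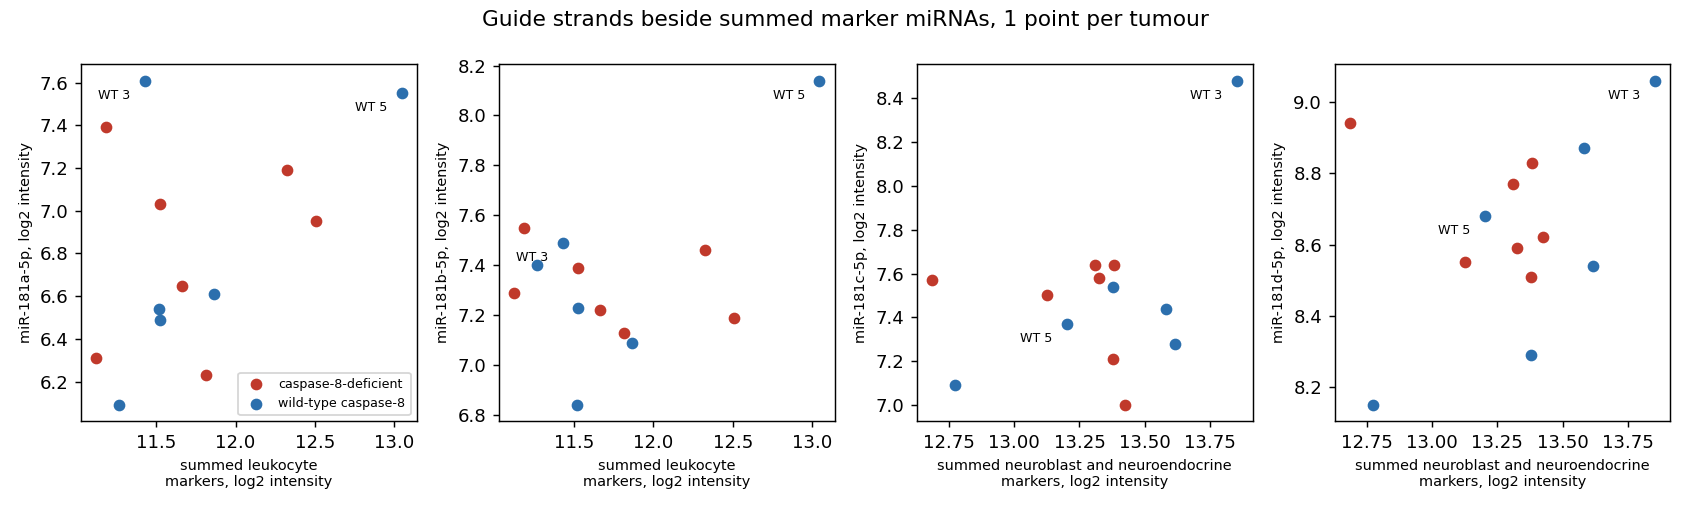
Log2 level of a guide strand (vertical) against the summed log2 level of a marker list (horizontal), 1 point per tumour (red, 7 deficient; blue, 6 wild type). Wild-type replicate 5 is the tumour at 13.05 on the leukocyte axis, and wild-type replicate 3 the one at 13.85 on the neuroblast and neuroendocrine axis.

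The miRNAs whose levels were most like each member were named by Pearson r over the 13 tumours among 415 tested miRNAs outside the family, as a description. They differed between the members. For miR-181a-5p they were miR-342-5p (0.84), miR-23b-3p (0.79) and miR-350-3p (0.77), and for miR-181b-5p miR-335-3p (0.81), miR-342-3p (0.78) and miR-34a-5p (0.75). Both arms of miR-342 thus stood among the likest of the chromosome 1 and 2 members. Of these, miR-342-5p averaged 4.92, near the floor of 4.1, and was detected on 12 of 13 arrays, whereas miR-342-3p averaged 10.66. miR-342-3p is 1 of 7 on the leukocyte list, whose sum had a rho of −0.14 with miR-181b-5p. For miR-181c-5p the likest were miR-124-3p (0.87), abundant in mature neurons and on the neuroblast and neuroendocrine list, miR-193b-3p (0.83) and miR-376b-5p (0.81), and for miR-181d-5p miR-369-5p (0.81), miR-345-5p (0.79) and miR-300-3p (0.76). The sum of the whole neuroblast and neuroendocrine list had a rho of 0.10 with miR-181c-5p. Leaving out wild-type replicate 3 gave 0.63, 0.66 and 0.46 for the 3 beside miR-181c-5p. Leaving out wild-type replicate 5 gave 0.64, 0.60 and 0.41 for those beside miR-181b-5p. For the others the lowest r with 1 tumour left out was 0.61.

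The passenger strands could have told the hairpins apart, since each is made from 1 hairpin. All 6 were on the array, and 5 of them were detected in no tumour. miR-181c-3p was detected in 1, deficient replicate 1, yet its highest scaled intensity over the tumours, 11.3, lay under the floor of 17.2. None of the 6 entered the test, and no fold is given for them.

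The neighbours of the chromosome 8 members were read through the Mirc11 cluster, whose miRNAs are known from smooth muscle, blood and vessel cells. Of its 6 mature forms on the array 3 were tested, miR-23a-3p, miR-27a-3p and miR-24-3p, and 0 were called. miR-23a-3p averaged 9.89 ± 0.57 in deficient and 10.16 ± 0.61 in wild-type tumours. miR-27a-3p averaged 9.66 ± 0.62 and 9.90 ± 0.46 in deficient and wild-type tumours, and miR-24-3p 10.64 ± 0.39 and 10.93 ± 0.44. The differences were −0.27 (SE 0.32), −0.245 (SE 0.30) and −0.28 (SE 0.24), with limma adjusted p between 0.668 and 0.7545. miR-24-3p is also made from a hairpin outside this cluster. Over the 12 relations of these 3 with the 4 members, the smallest adjusted permutation p was 0.201 by Pearson and 0.142 by Spearman. With miR-181c-5p, r was 0.18 for miR-23a-3p, 0.24 for miR-27a-3p and 0.57 for miR-24-3p, and with miR-181d-5p it was −0.26, −0.11 and 0.16. With miR-181a-5p, from other chromosomes, it was 0.60, 0.50 and 0.58. These were 0.73, 0.65 and 0.61 within slide 1, −0.10, −0.06 and 0.29 within slide 2, and 0.36, 0.27 and 0.30 without the 2 farthest tumours, so they did not hold within both slides. miR-24-3p with miR-181c-5p had an r of −0.07 within slide 1 and 0.90 within slide 2.

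Under the other settings each difference stayed within its 95% interval given above, as the plot by setting shows. miR-181a-5p ranged from −0.105 to 0.39, miR-181b-5p from −0.156 to 0.149, miR-181c-5p from −0.199 to 0.106 and miR-181d-5p from −0.0226 to 0.283 over the 17 alternatives that kept all tumours or 1 slide. The lowest limma adjusted p of a member among them was 0.576.

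**Figure D5:**
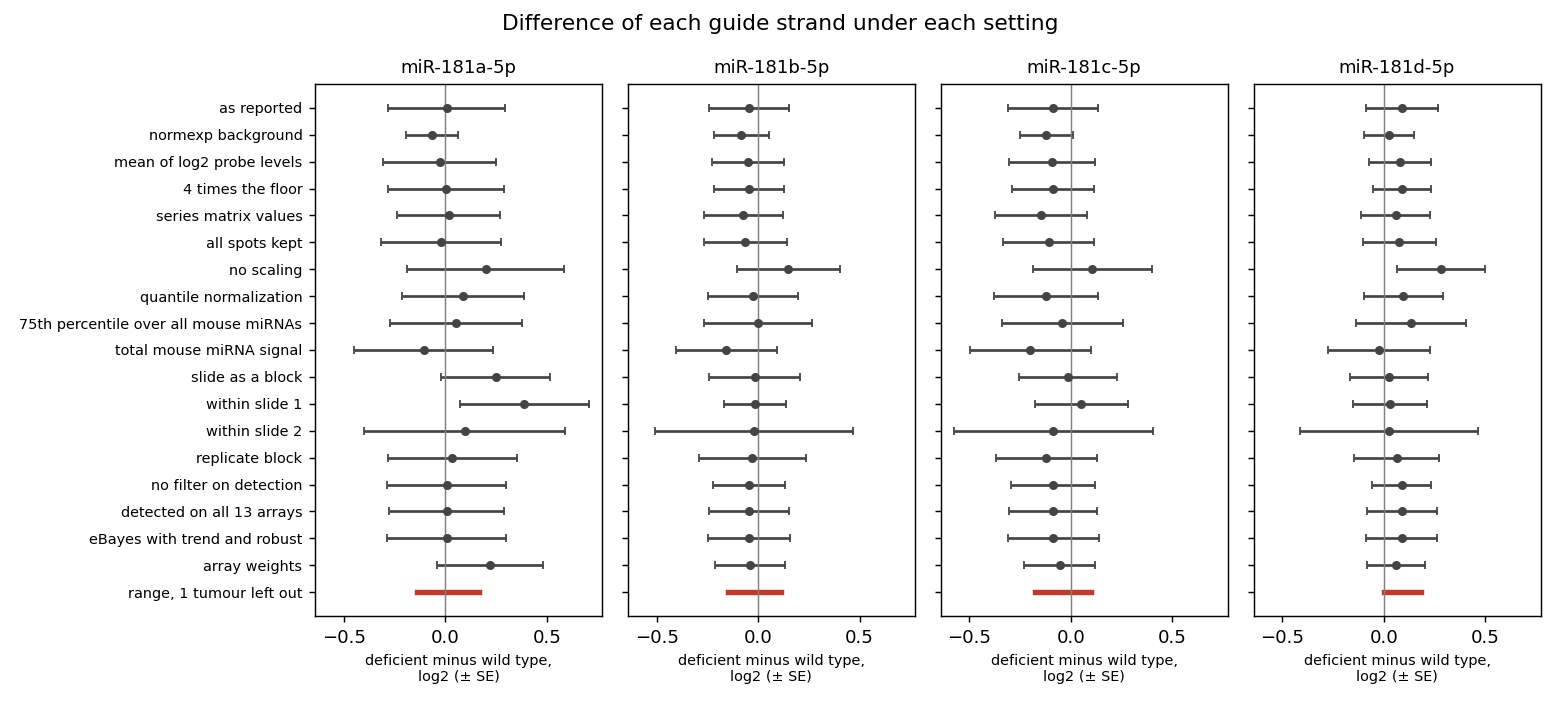
Deficient minus wild-type difference of each guide strand (log2, points with SE) as reported and under each alternative setting, with the range over leaving out 1 tumour in red. Every difference lies between −0.199 and 0.39, on both sides of 0 for each member.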

How the data were processed

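Scanner files of 13 arrays were deposited, with a linear intensity per spot from which background and spatial trend had been removed, per the file headers. The headers name Agilent Feature Extraction 10.7.3.1, and the submitters' processing notes name 10.5.1.1. The deposited detection, outlier and saturation marks are other columns, each 0 or 1; 0 spots were saturated. The deposited series matrix held log2 values with an equal median of 3.82 in every column; the sources used here do not give its scaling, centring and background step, all 13 columns matched their own array best, and it served as an alternative.

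Control spots (2164 of 47604) were left out. Outlier-marked spots were dropped, the rest averaged per probe, and probes summed per miRNA. Each array was divided by percentile 75 of its values for the 294 mouse miRNAs that every array detected, brought to a common geometric mean, floored at 17.2 (percentile 1 of detected values) and put on the log2 scale. The 419 that 6 or more arrays detected were fitted with limma 3.58.1 in R 4.3.3 (with the data.table package, version 1.17.8), two-sided, with Benjamini-Hochberg adjustment over all 419. Contrasts between members were compared by exact permutation over all 1716 splits into 7 and 6, in absolute size, and correlations by 100000 permutations (Python 3.11.15, NumPy 2.4.6, SciPy 1.17.1). The intervals of the contrasts assume normal errors. Tests were checked on simulated data. The normexp alternative was run on the median spot and background signals.

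Named miRNAs were the members, other forms of miR-181, the Mirc11 forms and, for each member, the 3 miRNAs with the highest r. The family, lists and tests were chosen with earlier results of these data known. The listed muscle marker miR-1-3p was read under its mouse name, miR-1a-3p. Leaving out tumours in the correlations, in the likeness and in the wild-type spread was added after seeing the data. The array design names mm9, and the RefSeq coordinates are of GRCm38.p6; they serve only to place the mature sequences. The number of arrays limits the precision, with a median 95% half-width of 0.626 over all tested differences.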

Additional observations from a re-analysis of the deposited data

Results flagged for a closer look

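The level of miR-181c-5p in wild-type replicate 3, 8.48 on the log2 scale, lay far from the other 5 wild-type tumours, the nearest of which was at 7.54. Its gap to that tumour was 0.673 of the range of the group, against Dixon's limit of 0.625 for 6 samples. It was the only such value among 12 groups looked at. These were the 7 deficient or 6 wild-type tumours for each of the 4 members and the 2 contrasts. Chance takes about 1 in 20 single groups past that limit, so 1 such value among 12 groups can arise by chance. The contrasts are built from the same members, so the groups are not independent.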

How the results depend on the processing

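No member passed under any alternative run, and the count of called miRNAs stayed at 0 in each, with 16 at an unadjusted p under 0.05 as reported. Signs, in contrast, were not stable. miR-181a-5p differed by −0.0628 with normexp background, −0.0282 with the mean of log2 probe levels, −0.0218 with all spots kept and −0.105 with the total mouse miRNA signal. miR-181b-5p differed by 0.149 without scaling and 0.000984 with the percentile over all mouse miRNAs, miR-181c-5p by 0.106 without scaling and 0.0511 within slide 1, and miR-181d-5p by −0.0226 with the total signal. The locus contrast was −0.0169 with the series matrix, −0.109 with a slide block, −0.147 on slide 1 alone and −0.0679 on slide 2 alone, and the sequence contrast was 0.111, 0.214 and 0.00178 under those last 3. The cause was not tested. With 1 tumour left out the members ranged from −0.138 to 0.165, −0.15 to 0.111, −0.176 to 0.1 and −0.000479 to 0.182 for miR-181a-5p to miR-181d-5p, the locus contrast from −0.14 to 0.106 and the sequence contrast from −0.175 to 0.0518; miR-181a-5p changed sign in 8 of 13 cases.

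The labels state no pairing of tumours by replicate number. The correlation of same-numbered tumours was −0.22 to 0.194, which cannot show whether a pairing existed. With a replicate block the members differed by 0.035, −0.0283, −0.12 and 0.0648, the locus contrast by −0.0311 and the sequence contrast by −0.061 over 6 pairs, with 0 miRNAs called.

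Without scaling, where differences between arrays are left in, r was 0.91 for miR-181a-5p with miR-181b-5p (adjusted permutation p = 0.0003), 0.76 with miR-181c-5p and 0.74 with miR-181d-5p, 0.66 for miR-181b-5p with miR-181d-5p and 0.85 for miR-181c-5p with miR-181d-5p, all past the threshold. With the series matrix r was 0.73 for miR-181a-5p with miR-181b-5p, 0.62 with miR-181c-5p and 0.7 for miR-181c-5p with miR-181d-5p. These passed the threshold (adjusted permutation p of 0.0228, 0.0375 and 0.0228), and the remaining pairs did not (0.0879 or more). miR-181a-5p with miR-181d-5p gave −0.14 within slide 1, 0.89 within slide 2, −0.26 within deficient tumours and −0.1 without the 2 farthest tumours, and miR-181b-5p with miR-181d-5p −0.1 within deficient tumours. With 1 tumour left out r was 0.54 to 0.74 for miR-181a-5p with miR-181b-5p, 0.15 to 0.56 with miR-181c-5p, −0.03 to 0.37 with miR-181d-5p, 0.07 to 0.37 for miR-181b-5p with miR-181c-5p, 0.27 to 0.62 with miR-181d-5p and 0.48 to 0.73 for miR-181c-5p with miR-181d-5p. Without wild-type replicate 2 or 6 both same-locus pairs passed the threshold (adjusted permutation p of 0.0104 and 0.0308 for the first, 0.0438 and 0.0308 for the second).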
